A study of Mus musculus with 10 samples.

Results

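Among mutant (RFP+) lung epithelial cells of Red2Kras mice, sorted 2 weeks after induction, a small population carried high levels of Dlk1, an imprinted gene, together with a set of genes that included Cd177. These Dlk1-high cells were chosen by their own counts. A cell was a member if it had at least 1000 genes, at most 50000 UMIs (unique molecular identifiers, each standing for 1 captured RNA molecule), at most 15% mitochondrial UMIs and no UMI of Ptprc, the pan-leukocyte gene, and if it also had at least 3 Dlk1 UMIs, fewer than 10 Gzme UMIs and at least 1 UMI of 2 or more of the accessory genes Kng2, St8sia6, Fbp2, Cd38 and Cd177. The rule selected 187 cells of replicate 1 and 228 cells of replicate 2, 415 in all, of 6925 cells in both libraries that passed the quality filters with Ptprc at 0 and of 30599 such cells in the whole series. Cells of the same library with no Dlk1 UMI, 3287 and 2336 of them, served for comparison and are called Dlk1-0 cells. Since Dlk1 and the accessory genes fixed who was a member, differences between members and Dlk1-0 cells are descriptions with no test.

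All mice were 8 weeks old, of both sexes, and received 3 doses of 0.2 mg tamoxifen per g of body weight. In Sftpc-CreERT2;Red2Kras lungs, a Cre driven by the surfactant protein C promoter turns alveolar type 2 (AT2) cells into RFP+ cells that carry the mutant allele or into YFP+ cells that stay wildtype, whereas in Sftpc-CreERT2;R26R-Confetti lungs RFP+ and YFP+ cells are both wildtype. EpCAM+ cells of either colour, from at least 2 pooled lungs per sample, gave 1 library per colour from Confetti mice and, for each colour and time (4 days or 2 weeks), 2 libraries from Red2Kras mice. No time is labelled for Confetti, which the methods put at 2 weeks. RFP 2 weeks libraries held 79927159 and 51687559 UMIs, against 10742481 to 29526133 in the other 8 libraries, so depth and group cannot be told apart. Libraries were made over 2 days according to the methods, and neither these nor the labels assign libraries to a day. No more than 2 barcodes of members recurred in any other library.

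Dlk1 encodes a transmembrane protein with EGF-like repeats that resembles Notch ligands. It is expressed from the paternal allele of an imprinted cluster whose maternal allele gives long noncoding RNAs, among them Meg3 and Mirg, and it is known from fetal tissues and progenitor cells. Cd177 encodes a surface glycoprotein best known from neutrophils. Of the other accessory genes, Cd38 encodes an enzyme that consumes NAD, Fbp2 a fructose-bisphosphatase, Kng2 a kininogen, the precursor of kinins, and St8sia6 a sialyltransferase. After loss of epithelial homeostasis, AT2 cells can pass through a damage-associated transient progenitor (DATP) state, marked by Krt8 and Cldn4, on their way to flat alveolar type 1 (AT1) cells.

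Dlk1 lies at chr12:109452823-109463336 and Meg3 at chr12:109541001-109571726, both on the plus strand, and Mirg follows at chr12:109729764-109749460 (GRCm38). Cd177 lies on the minus strand at chr7:24743983-24760311. The promoters of Dlk1, Meg3 and Cd177 are shown because the former genes share 1 imprinted cluster and were high in the same cells, and because Cd177 is one of the accessory genes. They come from RefSeq (GRCm38.p6) and run, in the direction of transcription, from 250 bases before the start to 50 after it (chr12:109452573-109452872, chr12:109540746-109541045 and chr7:24760262-24760561). RefSeq lists 2 starts for Meg3, and the one nearest to the start in GENCODE M21 is given. Capitals mark matches on either strand. The forkhead motif was searched as TGTTTAC, the CCAAT box as CCAAT and the TATA box as TATAAA.
Dlk1: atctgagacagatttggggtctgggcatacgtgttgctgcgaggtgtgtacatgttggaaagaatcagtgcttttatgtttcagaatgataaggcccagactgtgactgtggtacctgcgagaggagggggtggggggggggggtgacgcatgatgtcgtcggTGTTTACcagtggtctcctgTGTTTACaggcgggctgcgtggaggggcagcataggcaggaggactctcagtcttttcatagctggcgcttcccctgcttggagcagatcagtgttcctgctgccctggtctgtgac
Meg3: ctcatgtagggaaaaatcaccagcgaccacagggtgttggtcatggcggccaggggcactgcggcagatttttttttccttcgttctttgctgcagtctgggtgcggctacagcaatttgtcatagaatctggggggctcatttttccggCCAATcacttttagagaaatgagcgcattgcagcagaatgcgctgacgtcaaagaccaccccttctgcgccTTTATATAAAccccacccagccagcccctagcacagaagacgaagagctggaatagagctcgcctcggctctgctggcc
Cd177: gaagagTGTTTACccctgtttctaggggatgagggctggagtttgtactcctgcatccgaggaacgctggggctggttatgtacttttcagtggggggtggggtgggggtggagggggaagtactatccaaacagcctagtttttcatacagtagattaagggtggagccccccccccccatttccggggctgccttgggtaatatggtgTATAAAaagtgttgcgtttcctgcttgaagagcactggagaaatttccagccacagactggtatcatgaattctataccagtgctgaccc
The Dlk1 promoter held 2 forkhead matches and the Cd177 promoter 1, while 3.65% of 32851 mouse promoters of the same length held at least 1. The windows of Kng2, St8sia6, Fbp2, Cd38 and Bgn were also searched, are not shown and held no forkhead match. The Meg3 promoter held none, but had 2 overlapping TATA box matches and 1 CCAAT match, and the Cd177 promoter had 1 TATA box match (the TATA box letters were in 13.6% and the CCAAT letters in 37.4% of all promoters). The E-box CACGTG, the Nkx2-1 core CAAGTG and the AP-1 motif TGANTCA were in none of the windows shown, and in 7.15%, 13.6% and 7.81% of all promoters. Of the windows not shown, that of Fbp2 held all of these motifs and that of Cd38 the Nkx2-1 core. These are matches of letters only.

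Cells that met the rule were nearly all from the RFP 2 weeks libraries. They made up 4.57% (exact Clopper-Pearson 95% interval 3.95 to 5.25) of 4096 cells in replicate 1 and 8.06% (7.08 to 9.12) of 2829 cells in replicate 2. At 4 days, RFP replicates 1 and 2 held 6 and 4 such cells. Wildtype YFP+ neighbours at 2 weeks held 1 and 5. YFP at 4 days and Confetti held 0. The exact upper bounds were 0.0942% for the 3914 Confetti RFP cells, 0.0895% for Confetti YFP, and 0.202% and 0.123% for YFP 4 days replicates 1 and 2. No cell of either Confetti library had a single Dlk1 UMI. Intervals and limits cover counting error only. Alveolar cells had a median of 15695 and 13298.5 UMIs in the RFP 2 weeks libraries and of 3250.5 to 6700.5 in the others. The part of depth in these shares was not tested.

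**Figure D1:**
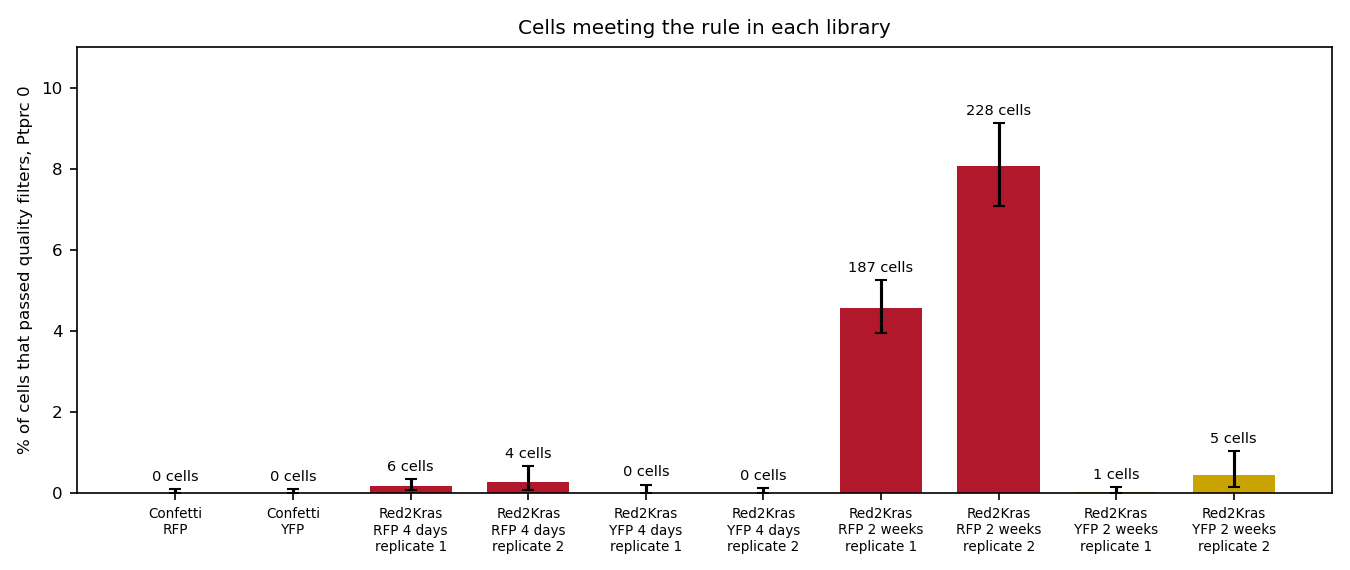
Share of cells that met the rule in each of the 10 libraries (vertical axis, % of cells that passed the quality filters with Ptprc at 0). Bars give the share, error bars the exact Clopper-Pearson 95% interval and the numbers above them the count of cells. RFP 2 weeks replicates 1 and 2 stand at 4.57% and 8.06%, and every other library lies under 0.5%.

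The values that chose the members were as follows. Members of replicate 1 had a median of 36 Dlk1 UMIs and a maximum of 342, and members of replicate 2 a median of 30.5 and a maximum of 204. St8sia6 was present in 161 of 187 and 188 of 228 members, Cd38 in 135 and 152, Kng2 in 125 and 208, Cd177 in 96 and 77, and Fbp2 in 57 and 110. All 5 accessory genes were found in 17 and 24 members. A Cd177 UMI was thus not found in every member, and the population is called here by Dlk1. Cells just inside the rule, with 3 or 4 Dlk1 UMIs, numbered 12 and 15 and held Meg3 at 659 and 1752 CPM (counts of a gene scaled to the same total of UMIs, after summing over cells). The 67 and 55 cells just outside it, with 1 or 2 Dlk1 UMIs and the rest of the rule met, held 306 and 1307 CPM. Of cells with 3 or more Dlk1 UMIs and fewer than 10 of Gzme, 65 and 62 had just 2 accessory genes and 76 and 43 had only 1.

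The share of cells with a Cd177 UMI is given with and without thinning, because members were deeper (median 19689 and 15830.5 UMIs) than Dlk1-0 cells (15092 and 12935.5). With all UMIs, 51.3% of members of replicate 1 and 33.8% of replicate 2 had a Cd177 UMI, against 3.59% and 9.29% of Dlk1-0 cells. After every cell was thinned to 5000 UMIs, the shares were 37.4% and 19.7% of members and 1.64% and 6.33% of Dlk1-0 cells. Immune-like cells (at least 1 Ptprc UMI, median 8610 and 12711 UMIs) stood at 2.75% and 0.462%. Cd177 was one of the genes that admitted members, so these shares are in part set by the rule and say nothing more of Cd177. Thinning left out 5 members of each library and 238 and 218 Dlk1-0 cells.

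Meg3, which the rule did not use, was high in the same cells. Members held 968 and 1746 CPM of Meg3 in each library, and Dlk1-0 cells 134 and 831. The log2 ratio was 2.84 in replicate 1 and 1.07 in replicate 2, with a pseudocount of 1 CPM. Members were higher in both libraries, but Dlk1-0 cells of replicate 2 came close to members of replicate 1. Meg3 was seen in 86.1% and 95.2% of members, 26.1% and 62.1% of Dlk1-0 cells, and 12.1% and 16.6% of immune-like cells. Mirg, the miRNA-bearing noncoding RNA further along the cluster, stood at 28.6 and 38.3 CPM in members and at 4.36 and 16.2 in Dlk1-0 cells. Rtl1 and Dio3, the other protein-coding genes of the cluster, had 0 UMIs in members of both libraries. Of 22 genes of the cluster and of the wider imprinted network, 21 were matched and 6 passed the minimum of 10 CPM. Meg3 and Mirg were at least 2-fold higher, as were 0.32% of all genes tested, and Cdkn1c, Igf2r, Nnat and Phlda2 had log2 ratios between -0.57 and -0.01. Mirg passed the minimum only through its level in members, so the count shows little about the list.

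Outside the rule, few genes separated members from Dlk1-0 cells in both libraries. Among 6880 genes, 22 (0.32%) were at least 2-fold higher in members in both libraries and 94 (1.37%) at least 2-fold lower. The median log2 ratio over all of them was 0.01 and -0.07. The members were read against 55262474 and 32397645 UMIs of Dlk1-0 cells with 4061038 and 3946297 of their own.

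Trf, Bgn, Gpc3 and Orm1 were among the higher genes. Trf, which encodes the iron carrier transferrin, stood at 2986 and 2546 CPM in members and at 295 and 1009 in Dlk1-0 cells, 10.1-fold and 2.52-fold higher. A Trf UMI was in 96.8% and 95.2% of members, but also in 70.3% of Dlk1-0 cells of replicate 1. Immune-like cells held one in 73.8% and 87.4%. Bgn, the matrix proteoglycan biglycan, stood at 136 and 88.4 CPM against 12.7 and 32.0. It was seen in 55.6% and 39.5% of members, 8.67% and 13.7% of Dlk1-0 cells, and 4.03% and 1.57% of immune-like cells. Gpc3, a cell-surface heparan sulfate proteoglycan, was at 89.1 and 87.7 CPM against 30.6 and 35.1. Orm1, an acute-phase plasma protein, was at 148 and 141 CPM against 43.9 and 52.6.

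Rgs4, a regulator of G-protein signalling, was at 95.8 and 54.5 CPM in members and at 23.9 and 23.5 in Dlk1-0 cells. Pf4, the chemokine platelet factor 4, was at 264 and 105 CPM against 76.0 and 50.1. Ifitm3, an interferon-induced membrane protein, only just passed, at 2.00-fold and 2.19-fold. Beside Meg3, the other 14 genes lay under 100 CPM in members. They included Cldn2, a tight-junction claudin (46.3 and 45.1 CPM against 12.6 and 17.96), Qpct, a glutaminyl cyclase (46.5 and 90.7 against 12.1 and 38.8), Col15a1, a basement membrane collagen (28.3 and 15.2 against 2.42 and 4.97), and Inhbb, an activin subunit (29.8 and 40.5 against 11.8 and 18.4).

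**Figure D2:**
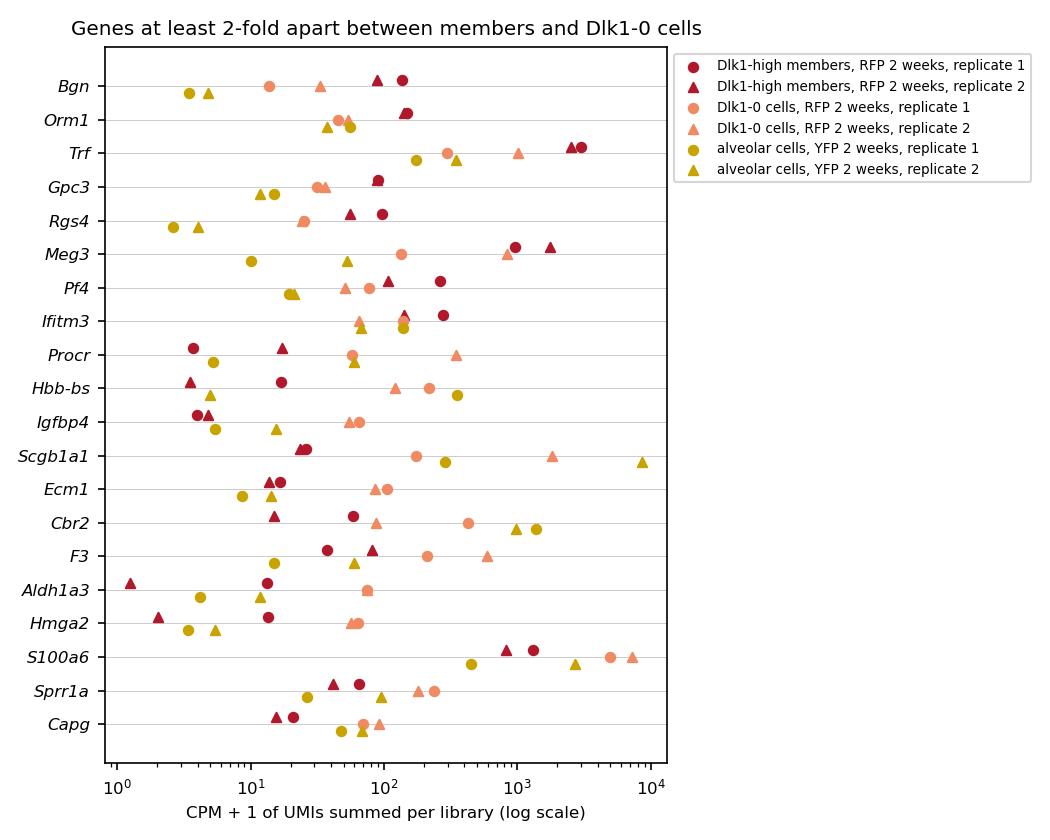
CPM + 1 (log axis) of the genes chosen by size among those at least 2-fold apart in both libraries, in members, Dlk1-0 cells and YFP 2 weeks alveolar cells. Circles are replicate 1 and triangles replicate 2. Bgn, Trf, Rgs4 and Meg3 are highest in members, and Procr, F3 and S100a6 are higher in Dlk1-0 cells than in members of either library.

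Levels of several of these genes also differed with the number of Dlk1 UMIs per cell, here among cells with fewer than 10 Gzme UMIs and whatever their accessory genes. In replicate 1, Trf was at 252 CPM in 3136 cells with no Dlk1 UMI, 412.7 with 1 or 2, 785 with 3 to 9, 1387 with 10 to 29, 2288 with 30 to 99 and 6319 in 40 cells with 100 or more. In replicate 2 the same classes stood at 969, 1475, 1176, 1964, 2462 and 4630 CPM, with 26 cells in the last. Meg3 was higher in each class than in the one before it in both libraries, from 122 to 1305 CPM in replicate 1 and from 833 to 2170 in replicate 2. Bgn went from 10.47 in the lowest to 240.5 CPM in the highest class and from 31.1 to 140.3 CPM, and Lcn2, which encodes the iron-siderophore binding lipocalin 2, from 5505 to 15992 and from 3314 to 12392. S100a6 went the other way, from 4431 to 184 and from 7041 to 225 CPM. Deeper cells fall into higher classes (median 14882.5 UMIs in the lowest and 19084 in the highest class of replicate 1), and the part of depth in these values was not tested.

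**Figure D3:**
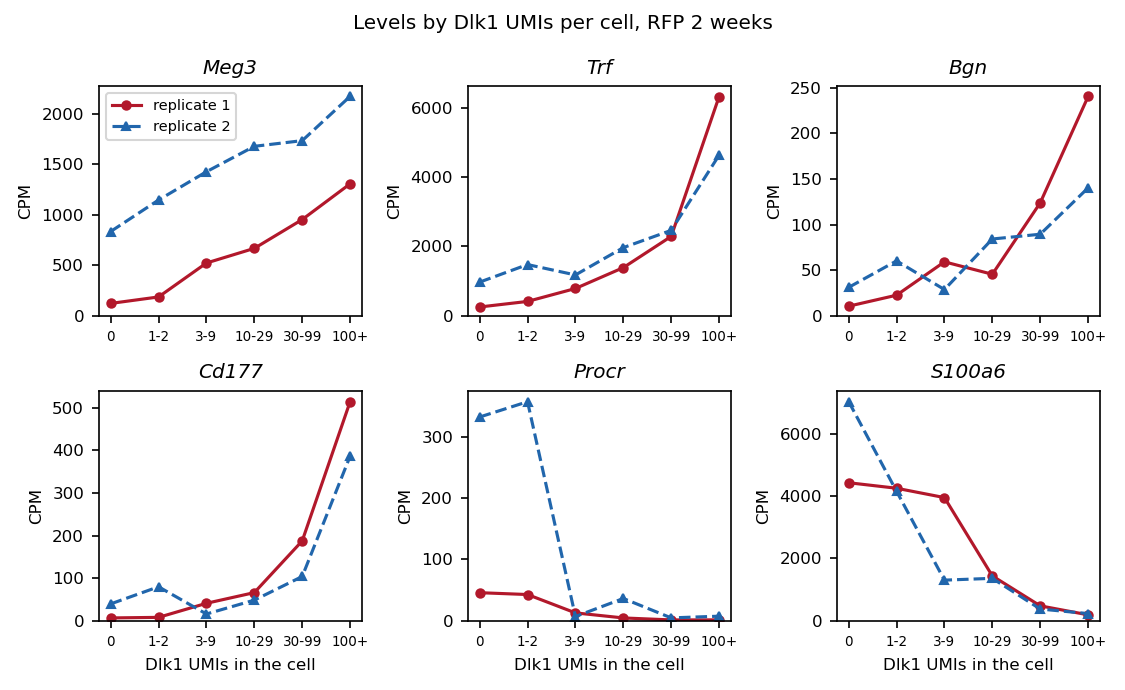
CPM (vertical axes, from UMIs summed over cells) of 6 genes by the number of Dlk1 UMIs in the cell, in RFP 2 weeks replicate 1 (solid, circles) and replicate 2 (dashed, triangles). Meg3 is higher in each class than in the one before, and S100a6 falls below 250 CPM at 100 or more Dlk1 UMIs.

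Some of the genes lower in members belong to the DATP list, 7 of the 94. Of its 24 genes, all passed the minimum, 7 (Procr, F3, Hmga2, Fn1, Sprr1a, Lgals3 and Ndrg1) were at least 2-fold lower in both libraries, and none was 2-fold higher. Of all genes tested, 1.37% were at least 2-fold lower. Procr, Hmga2 and Fn1 passed the minimum only through their level in Dlk1-0 cells, so the count of 7 shows little about the list. The list's median log2 ratio was -0.61 and -1.46, beside 0.01 and -0.07 over all genes, and 20 of 24 were lower in both libraries to some degree, as were 35.1% of all genes tested. Procr, the protein C receptor, was at 2.71 and 16.2 CPM in members and at 56.7 and 349 in Dlk1-0 cells. F3, tissue factor, was at 36.2 and 80.6 CPM against 209 and 596. Hmga2, a chromatin protein of embryonic cells and tumours, was at 12.6 and 1.01 CPM against 62.6 and 55.8. Krt8, the keratin that defines the state, was at 745 and 769 CPM against 1004 and 1547, and Cldn4 at 75.6 and 55.7 against 131 and 250.

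Other genes lower in members included S100a6, a calcium-binding protein (1300 and 820 CPM against 4943 and 7222), Igfbp4, which binds insulin-like growth factors (2.96 and 3.801 against 64.2 and 53.8), Ecm1, an extracellular matrix protein (15.5 and 12.7 against 104 and 84.2), and Aldh1a3, which makes retinoic acid (12.3 and 0.253 against 74.0 and 73.6). Cbr2, a lung carbonyl reductase, was at 57.1 and 13.9 CPM against 428 and 86.2, and the actin-capping gene Capg at 19.7 and 14.4 against 69.1 and 91.3. Of 20 gastric and gut genes 5 passed the minimum, of which Ctse, Tff1 and Anxa10 were at least 2-fold lower. Gkn2 differed in direction between libraries, and 1 gene was higher in both, by less than 2-fold in at least 1 of them. Ctse, Tff1 and Anxa10 passed only through their level in Dlk1-0 cells, so their count shows nothing about the list. Among the lower genes were also markers of other cells. The club cell gene Scgb1a1 was at 24.9 and 22.3 CPM against 172 and 1831, and the globin gene Hbb-bs at 16.0 and 2.53 against 216 and 119, whereas the club cell gene Cyp2f2 was at 29.5 and 18.5 against 15.5 and 16.1. The part of free RNA from such cells was not tested.

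These lower genes depended on which Dlk1-0 cells were compared, and S100a6, Ecm1 and Sprr1a turned direction (mean log2 ratio 0.73, 0.46 and 2.57) against Dlk1-0 cells without UMIs of Procr, F3 or Gzme. Igfbp4, at 5.85 and 1.55 CPM in those cells, stayed lower in members of replicate 1 only. Dlk1-0 cells held 284 and 595 cells with UMIs of both Procr and F3 and fewer than 10 of Gzme, in which Krt8 was at 2455 and 3044 CPM, Hmga2 at 218 and 152, and Meg3 at 59.5 and 264. When only the 2049 and 1146 Dlk1-0 cells with no UMI of Procr, F3 or Gzme were compared, a choice made after seeing the data, 22 genes were at least 2-fold lower in members, of which 10 were among the 94. Krt8 then stood at 525 and 531 CPM and Clu, another DATP gene, at 676.5 and 727 in the comparison cells, against 2780 and 1148 for Clu in members. Krt8 and Clu of members thus lay above those cells and below the cells with Procr and F3. These 2 genes do not place the whole DATP list. Nupr1, also on it, was lower in members than in those cells in both libraries, and Lgals3 was lower in replicate 1. In that comparison 34 genes were at least 2-fold higher, of which 8 were among the 22. Trf was at 285 and 1233 CPM, Bgn at 7.15 and 32.8 and Meg3 at 121 and 1107 in those cells. Trf and Bgn stayed at least 2-fold higher in both libraries. Meg3, Gpc3, Orm1, Rgs4, Pf4 and Ifitm3 were less than 2-fold higher in replicate 2.

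AT2 genes lay close to their level in Dlk1-0 cells. Of 20 AT2 genes, none was 2-fold apart in both libraries, and the median log2 ratio was -0.12 and 0.43. Sftpc, the AT2-defining surfactant gene, was at 68778 and 98598 CPM in members and at 75304 and 65717 in Dlk1-0 cells, and Sftpc UMIs were in every member, but also in 99.3% and 86.0% of immune-like cells. Against Dlk1-0 cells without UMIs of Procr, F3 or Gzme, Sftpc and the lysozyme gene Lyz2 were lower in members of both libraries. The surfactant gene Sftpb was higher, and the AT2 list as a whole was not set against those cells. Of 14 AT1 genes that passed the minimum, none was 2-fold apart in both, and 10 were lower in both libraries (median log2 ratio -0.23 and -0.73), where 35.1% of all genes tested were lower in both. Ager, the receptor that marks AT1 cells, was at 625 and 1033 CPM against 647 and 1133, with a UMI in 96.3% and 99.1% of members, 86.3% and 85.3% of Dlk1-0 cells, and 26.2% and 13.4% of immune-like cells. AT2 and AT1 genes were thus present side by side in members, and also in Dlk1-0 cells. Hopx, a homeobox gene of AT1 cells, was at 34.0 and 73.7 CPM in members against 26.0 and 267, opposite ways in the 2 libraries.

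Of 10 genes of the primed AT2 state that passed the minimum, Orm1 alone was at least 2-fold higher, and 7 were higher in both libraries to some degree (median log2 ratio 0.33 and 0.47). Lcn2 was at 9833 and 7268 CPM against 5296 and 3195, and the chitinase-like gene Chil1 at 3046 and 3072 against 1700 and 1658. All 12 genes of antigen presentation were higher in both libraries, none of them 2-fold (median 0.36 and 0.44), with Cd74, the class II invariant chain, at 5672 and 4434 CPM against 4535 and 3081. Of all genes tested, 28.4% were higher in both libraries. Cd74 was no higher in members than in Dlk1-0 cells without UMIs of Procr, F3 or Gzme, in either library. The antigen presentation list as a whole was not set against those cells. Of 14 genes of G2 and mitosis that passed the minimum, 13 were higher in both, none 2-fold (median 0.28 and 0.74), and Ube2c, which drives exit from mitosis, was at 238 and 133 CPM against 190 and 57.2. None of 12 S phase genes that passed was higher in both.

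Lists around the accessory genes and Dlk1 held few differences. Of 16 genes of NAD and kinin turnover, 4 passed the minimum, of 17 sialyltransferases 6, of 23 genes of glycolysis and gluconeogenesis 15 and of 23 genes of the Notch pathway 8, and none of these was 2-fold apart from Dlk1-0 cells in both libraries. The list of sialyltransferases did not hold St6galnac3, another gene of this family, which was among the 22 higher genes (30.04 and 44.6 CPM against 5.14 and 17.9) and is named after its values were seen. Against wildtype neighbours (the test is described with that comparison), where 1.33% of all genes rose and 1.91% fell, 1 of 9 NAD and kinin genes rose (Ace, which degrades kinins), and 0 of the 8 sialyltransferases of the list that were tested changed. Ace passed the count filter of that test only through its level in members. Outside the list as used, St6galnac3 rose (log2 fold change 4.81, edgeR adjusted p = 0.0182), and 1 of the 2 entries named St6galnac2 fell by the same test. Of 19 genes of glycolysis and gluconeogenesis the glucose transporter gene Slc2a1 rose and Pcx, pyruvate carboxylase, fell, and of 13 Notch genes 1 fell (Notch2, a receptor).

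**Figure D4:**
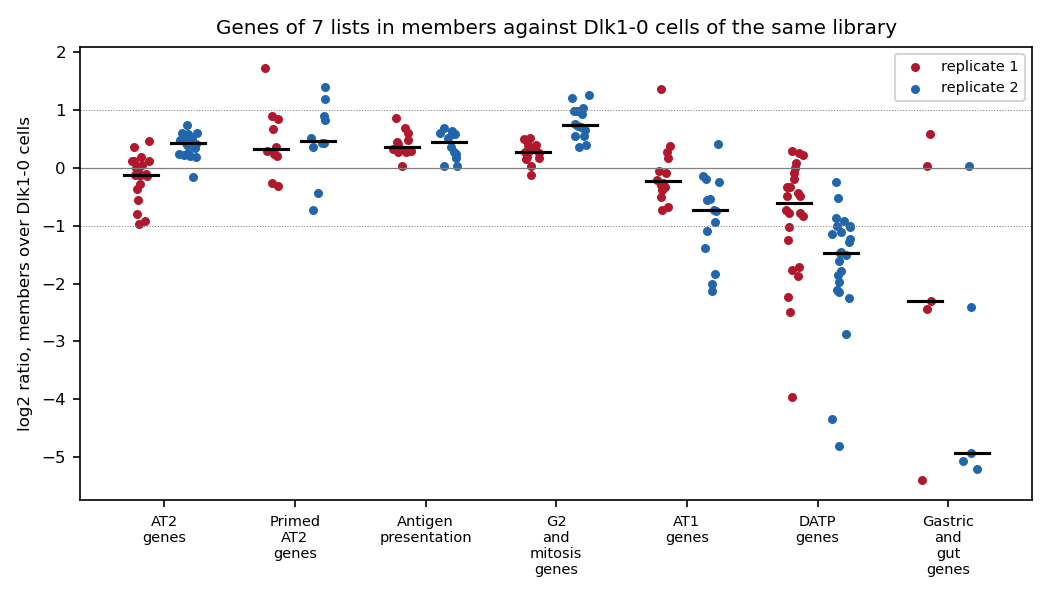
Log2 ratio of members over Dlk1-0 cells of the same library (vertical axis) for the genes of 7 lists that passed the minimum of 10 CPM, without genes of the rule. Each point is a gene, colours are replicates, black bars are medians and dotted lines mark 2-fold. DATP genes have medians of -0.61 and -1.46, and AT2 genes -0.12 and 0.43.

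Few markers of other cell types passed the minimum of 10 CPM. Of 9 immune markers, summed at 114 and 86.9 CPM in members and 77.4 and 64.8 in Dlk1-0 cells, 8 were under 5 CPM in members, and Lcp1, an actin-bundling gene, gave 104 and 81.1 of the sum. Of 10 neutrophil markers, Ly6g, Camp, Ngp, Mmp8 and Mmp9 were at 0 in members, and the resistin-like gene Retnlg was at 131 and 53.5 CPM against 56.0 and 30.7. Retnlg was also the 1 neutrophil marker tested against wildtype neighbours, where it rose (log2 fold change 2.55 ± 0.45, edgeR adjusted p = 0.0324). The 7 mesenchymal markers summed to 2.46 and 4.05 CPM, with Col3a1, Col1a2 and Pdgfra at 0. The 7 endothelial markers summed to 130 and 124 CPM in members and 123 and 94.6 in Dlk1-0 cells. Most of the members' sum came from Esam (454 and 424 UMIs), and Kdr, Cdh5 and Cldn5 were at 0. By Scrublet, which scores likely doublets, 6 of 187 and 3 of 228 members had scores among the highest of their library (3.21% and 1.32%), against 3.13% and 2.01% of Dlk1-0 cells.

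Members of replicate 1 came from mice of both sexes. By Xist on one side and the Y-linked Ddx3y, Eif2s3y, Kdm5d and Uty on the other, 62 of its members were female and 92 male, 40.3% female (32.4 to 48.5), against 31.5% (29.7 to 33.4) of its Dlk1-0 cells. In replicate 2, 161 members were male and none was female, as for its Dlk1-0 cells with 1 exception. Female members of replicate 1 had 6589 CPM of Trf and 260.2 of Bgn and its male members 1770.5 and 84.7, against 479 and 28.2 in female and 246 and 8.58 in male Dlk1-0 cells. Meg3 was at 1240.2 CPM in female and 918 in male members. The limit on Gzme, a granzyme gene of cytotoxic lymphocytes, also divided the sexes. Cells that met the rule but for having 10 or more Gzme UMIs numbered 142 and 13, and in replicate 1 were female in 136 of 138 cells that could be assigned (98.6%, 94.9 to 99.8), while in replicate 2 the 11 that could be assigned were male. They held 3558 and 2626 CPM of Dlk1, 930.5 and 1276 of Meg3 and 9374 and 4649 of Trf, but only 13960 and 52744 of Sftpc. Pf4, Cldn2, Qpct and Col15a1 were also higher in these cells than in members of both libraries, and Bgn was in replicate 1 only. Those genes are thus not particular to members. Gpc3, Orm1, Rgs4 and Inhbb were lower in these cells than in members of both libraries. Lungs were pooled, so sex and mouse cannot be told apart.

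Against wildtype neighbours, which the rule did not use, members differed in a set of genes that edgeR's quasi-likelihood test called. UMIs summed over members of the 2 RFP 2 weeks libraries were compared with those summed over 4216 and 1002 alveolar cells of the 2 YFP 2 weeks libraries. Of 11030 genes outside the rule, 147 (1.33%) rose and 211 (1.91%) fell at an adjusted p under 0.05. These counts depended on the fit, with 305 and 365 by DESeq2, 23 and 59 with all 10 libraries, 1517 and 1670 with a replicate block, and up to 339 and 581 without 1 library. With all 10 libraries in the fit Basp1, Spp1, Fetub, Gpc3, Scgb1a1, Cbr2, Ifi27l2a, Fgg and Ramp1 no longer passed. Cells of the YFP libraries were shallower (median 5856 and 6700.5 UMIs), and nothing in the labels says which libraries share lungs. The p-values thus measure the spread between 2 pooled libraries a group.

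Meg3 was at 9.01 and 61.1 TMM-scaled CPM in YFP and at 870 and 1675 in members, a log2 fold change of 5.21 ± 0.91 (SE, edgeR adjusted p = 0.0324). Mirg rose with it (4.87 ± 0.67, edgeR adjusted p = 0.0199), from 0.453 and 2.42 to 25.7 and 36.7. The groups did not overlap for either RNA, and the YFP library with the higher Meg3 was the one with 5 cells that met the rule. Bgn rose by 4.98 ± 0.42 (edgeR adjusted p = 0.0126), from 2.45 and 4.52 to 122 and 84.9 CPM, and Gpc3 by 2.63 ± 0.26 (edgeR adjusted p = 0.0126), from 13.8 and 12.6 to 80.1 and 84.1. Trf rose by 3.15 ± 0.48 (edgeR adjusted p = 0.0253), from 171 and 408 to 2684 and 2443 CPM. Rgs4 and Pf4 also rose (log2 fold change 4.90 and 3.01).

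Further genes rose that were not 2-fold apart from Dlk1-0 cells in both libraries. Spp1, the matrix phosphoprotein osteopontin, rose by 2.73 ± 0.52 (edgeR adjusted p = 0.0362), from 69.0 and 162 to 1006 and 528 CPM. Pdpn, podoplanin of AT1 cells, rose by 2.94 ± 0.40 (edgeR adjusted p = 0.0196), Basp1, a membrane-cytoskeleton protein, by 4.27 and Fetub, a fetuin, by 2.73. Of 13 regulators of lung and embryonic development, 2 rose and none fell (1.33% and 1.91% of all genes), with a median log2 fold change of 0.03. Sox9 rose by 3.09 ± 0.55 (edgeR adjusted p = 0.0335), from 1.51 and 4.04 to 28.3 and 13.4 CPM, and Etv4 by 3.28 ± 0.65 (edgeR adjusted p = 0.0432). Both passed the count filter of the test only through their level in members, so their count shows little about the list. Of 16 genes of ERK output, which report the activity of that kinase, the phosphatase genes Dusp4 and Dusp5 rose (1.76 and 1.71) and none fell, beside the same shares over all genes. Among the 12 genes of the imprinted list tested, Meg3 and Mirg rose and none fell. Mirg passed the count filter only through its level in members, so this count also shows little about the list.

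Over all genes 1.33% rose and 1.91% fell, and the lists of cell states are to be read against these shares. Of the 20 AT2 genes, Hc, Scd1, Etv5 and Lyz2 fell and none rose, with a median log2 fold change of -0.68 beside -0.03 over all genes. Hc, which encodes complement C5, fell from 1961 and 1817 CPM to 288 and 235 (log2 fold change -2.85 ± 0.33, edgeR adjusted p = 0.0170), and the lysozyme gene Lyz2 from 33009 and 30979 to 9344 and 8151. Scd1, a fatty acid desaturase, fell by 1.96 and Etv5, a factor that maintains AT2 cells, by 1.71 on the log2 scale. Of 18 AT1 genes tested, Pdpn rose and Clic3, Clic5 and Cyp2b10 fell, while Ager had a log2 fold change of -0.62 (edgeR adjusted p = 0.42). Cyp2b10 passed the count filter only through its level in the YFP libraries. Of 24 DATP genes, Ereg and Spp1 rose and Nupr1 fell, and the median was 0.82. Of 13 primed AT2 genes Orm1 alone rose (1.47 ± 0.27, edgeR adjusted p = 0.0344). Of 12 genes of antigen presentation none rose or fell, with a median log2 fold change of -0.36. None of 16 genes of G2 and mitosis passed, although 14 had an unadjusted p under 0.05 by edgeR, as had 2310 of all 11030 genes. Their median was 1.66, beside 1.28 for Dlk1-0 cells against the same YFP libraries.

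Among the largest falls were Cbr2 (from 1358 and 1155 CPM to 51.4 and 13.4, log2 fold change -5.28 ± 0.66, edgeR adjusted p = 0.0170), the lipid carrier Apoe (from 919 and 807 to 110.0 and 27.2), the calcium-binding S100g (from 3356 and 4687 to 400 and 436), the peptidase genes Mme and Anpep (-3.03 and -3.08), the calcitonin receptor partner Ramp1 (-3.11) and the respiratory chain gene Cox6a2 (-4.05). Ifi27l2a, an interferon-induced gene, and Fgg, a fibrinogen chain, fell by 3.24 and 3.22 on the log2 scale. Scgb1a1 fell as well, but stood at 284 CPM in one YFP library and at 10132 in the other.

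Dlk1-0 cells set against the same YFP sums passed the test for none of these genes. Of 13281 genes, 0 rose and 0 fell by edgeR (0% in each direction), 2376 had an unadjusted p under 0.05, and DESeq2 called 469 higher and 322 lower. With a replicate block 2139 were higher and 1769 lower, so the 0 does not show that Dlk1-0 cells were like their wildtype neighbours. The log2 fold change in Dlk1-0 cells was 3.74 for Meg3, 2.68 for Bgn, 3.24 for Rgs4, 1.10 for Trf, 1.22 for Gpc3, 0.97 for Fetub and -0.10 for Orm1, each lower than in members. It was 3.15 for Spp1, 3.00 for Sox9 and 3.31 for Etv4, close to the members' values, and 2.08 at the median of the DATP genes. Genes that fell in members had values in Dlk1-0 cells of -2.51 for S100g, -2.39 for Cbr2, -2.17 for Ramp1 and -2.09 for Mme, and a median of -0.87 over the AT2 genes. Both comparisons share the YFP libraries, and their difference was not tested.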

How the data were processed

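The authors mapped droplet-based 3′ single-cell libraries to GRCm38 and deposited UMI counts per gene and barcode. Their processing notes name Cell Ranger 3.1.0, FastQC 0.11.3 and MultiQC 1.8, whereas the file headers name Cell Ranger 5.0.1, and labels and methods differ on the chemistry version. Empty droplets were removed by the authors, and 32698 of 42012 deposited barcodes passed the quality filters. The members and gene lists were chosen with earlier results of these data known.

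The quality filters were those of the rule, which equal the study's. Dlk1-0 cells and YFP alveolar cells (same filters, Ptprc 0) were left out where 3 or more genes of the immune, endothelial, mesenchymal or ciliated lists had a UMI. UMIs were summed per library. Members and Dlk1-0 cells were compared as CPM with a pseudocount of 1, among genes with at least 10 CPM in both libraries on 1 side. Genes were named by size (at least 50 CPM on the higher side, at most 12 or 10 per direction). Sums were tested with edgeR 4.0.16 (R 4.3.3, TMM, filterByExpr, quasi-likelihood test, Benjamini-Hochberg over all genes), after a test on simulated data. Doublets were kept, and an alternative left out the highest Scrublet scores. Rian, Aldoa and St6galnac2 were not matched to a single row. Promoters and positions are from RefSeq and GENCODE M21.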

Additional observations from a re-analysis of the deposited data

Results flagged for a closer look

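Cells that met the rule also occurred outside the RFP 2 weeks libraries, and 3 libraries had a share above a limit of 0.0766%, which is 3 cells of Confetti RFP. The exact upper bound of that library is 0.0942%, and the intervals of both RFP 4 days libraries reach below it. The RFP 4 days libraries enter no comparison above, whereas the YFP 2 weeks libraries form the wildtype group of the edgeR test. RFP 4 days replicate 1 held 6 such cells (0.158%, exact Clopper-Pearson 95% interval 0.0580 to 0.343), with a median of 26 Dlk1 UMIs, and 5 of the 6 had a Meg3 UMI and 2 a Cd177 UMI. RFP 4 days replicate 2 held 4 (0.253%, 0.0691 to 0.647), with a median of 8 Dlk1 UMIs, of which 3 had Meg3 and none Cd177. YFP 2 weeks replicate 2 held 5 (0.439%, 0.143 to 1.02), with a median of 91 Dlk1 UMIs, all with Meg3 and 2 with Cd177, although YFP+ cells are wildtype by the study's design. YFP 2 weeks replicate 1 held 1 (0.0232%), under the limit.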

How the results depend on the processing

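With at least 3 accessory genes 122 cells of replicate 1 were members, after thinning to 5000 UMIs 105 and 137 (replicates 1 and 2), with no limit on Gzme 329 and with the Dlk1 minimum alone 436 of replicate 1. Of genes 2-fold apart from Dlk1-0 cells, 8 were higher and 29 lower at a minimum of 50 CPM, 40 and 210 with no minimum, 34 and 22 against Dlk1-0 cells without Procr, F3 or Gzme, and 217 and 463 in the female cells of replicate 1 alone, where 62 members give few UMIs. Called in 1 library alone, 50 to 82 were higher and 140 to 277 lower (without replicate 1, 50 and 277, and without replicate 2, 82 and 140). Against Dlk1-0 cells without Procr, F3 or Gzme, Procr, Ecm1, F3, S100a6 and Sprr1a reversed (mean log2 ratio 3.00, 0.46, 5.78, 0.73 and 2.57), Procr and F3 by construction. Igfbp4 (0.061) split between the libraries. In the same setting Meg3, Gpc3, Orm1, Rgs4, Pf4, Ifitm3, Hbb-bs, Aldh1a3 and Hmga2 were no longer 2-fold apart in both libraries. The other settings kept the counts within 1.5 times.

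Against YFP, members had 305 higher and 365 lower genes with DESeq2, 600 and 849 with no filter, and 23 and 59 with all 10 libraries in the fit. Leaving out each library gave 164 to 339 higher and 216 to 581 lower, with 339 higher without either RFP library. Dlk1-0 cells had 469 and 322 with DESeq2, 996 and 532 with no filter, 1 higher with all 10 libraries, and 0 to 827 higher and 1 to 785 lower without each library, the most without RFP replicate 1. With a replicate block, members had 1517 and 1670 and Dlk1-0 cells 2139 and 1769. Deviations of same-numbered libraries correlated across genes (0.47 and 0.59), but no label pairs them. Of the 20 genes named by size for members against YFP, 9 lost their call with all 10 libraries in the fit (Basp1, Spp1, Fetub, Gpc3, Scgb1a1, Cbr2, Ifi27l2a, Fgg and Ramp1) and Fgg also with DESeq2, and none lost it or reversed under the other 8 settings. A fit without a library leaves 1 library in that group, so its spread comes from the other group alone. The cause of these shifts was not tested. The share of cells with a Cd177 UMI moved with the depth of thinning.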
